A study of Mus musculus with 10 samples.

Results

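The genes of MHC class II presentation were followed in salivary gland cells of female NOD/shiLtJ mice. The list held 10 genes: the antigen-presenting chains H2-Aa, H2-Ab1 and H2-Eb1, the peptide editor chains H2-DMa, H2-DMb1 and H2-DMb2, the modulator chains H2-Oa and H2-Ob, the invariant chain Cd74 and the transactivator Ciita. Each gene was represented by its brightest probe set that names a single gene, and 9 of the 10 had one, out of 18826 genes tested. Cd74 was left out, because its probe set also names Mir5107. All 9 passed the filter on dim probe sets, and each had 1 such probe set. In RefSeq the measured H2 genes lie on chromosome 17 and Ciita on chromosome 16.

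NOD/shiLtJ is an inbred strain in which many females develop autoimmune diabetes and also inflammation of the salivary glands. Arrays came from 4 mice with type 1 diabetes at 21 weeks of age, 3 mice without diabetes at 21 weeks and 3 mice without diabetes at 6 weeks. All groups share the strain, and the nondiabetic mice carry the same autoimmune background as the diabetic ones. The labels name neither the gland taken nor any treatment of the animals. Mice carry their own number within a group in the labels, so an array was taken as 1 mouse, although pooling of RNA is not mentioned either way. The glands were digested with enzymes and filtered before RNA extraction, so the values describe a mixed cell suspension, in which more cells of a type and more RNA per cell cannot be told apart.

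Class II molecules are dimers of an alpha and a beta chain that display peptides from endosomes to CD4 T cells. They are carried mainly by B cells, dendritic cells and macrophages, and interferon gamma can induce them on other cells, gland epithelium included. The invariant chain holds the peptide groove until proteases remove it, H2-DM then exchanges its remnant for antigen peptides, and H2-O restrains H2-DM. NOD mice express a single class II isotype, I-A, whose alpha and beta chains are encoded by H2-Aa and H2-Ab1. The other isotype, I-E, is missing from their cells, because the alpha chain gene H2-Ea is defective in this strain, while its beta chain gene H2-Eb1 is transcribed.

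Transcription of these genes runs through a shared promoter module. RFX proteins bind its X box, NF-Y binds its Y box, which carries an inverted CCAAT sequence, and Ciita joins them without touching DNA itself. The bases around the Y box are shown here for 6 members, because these members share the factors while their values on the arrays differed. The sequences are RefSeq promoter windows of build GRCm38.p6, the C57BL/6J reference and not the NOD genome, aligned on the Y box and written on the strand of the gene from 5′ to 3′. Capitals mark the X box core (AGNNACNNAT) and the Y box letters (GATTGG).
H2-Aa: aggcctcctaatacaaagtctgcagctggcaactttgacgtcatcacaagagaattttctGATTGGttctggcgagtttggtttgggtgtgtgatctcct
H2-Eb1: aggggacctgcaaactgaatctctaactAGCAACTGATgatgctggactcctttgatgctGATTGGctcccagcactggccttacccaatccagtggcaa
H2-DMb1: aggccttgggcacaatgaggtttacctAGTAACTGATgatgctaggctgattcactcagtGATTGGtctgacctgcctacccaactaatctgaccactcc
H2-DMb2: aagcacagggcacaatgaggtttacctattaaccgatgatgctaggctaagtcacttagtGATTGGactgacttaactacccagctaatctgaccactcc
H2-Oa: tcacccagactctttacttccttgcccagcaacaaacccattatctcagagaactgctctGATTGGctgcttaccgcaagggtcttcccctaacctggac
H2-Ob: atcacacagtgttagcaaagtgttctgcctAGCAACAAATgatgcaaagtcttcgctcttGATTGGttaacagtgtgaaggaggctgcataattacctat

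These stretches of 100 bases lie upstream of the annotated transcripts on chromosome 17. They are chr17:34287833-34287932 on the minus strand for H2-Aa, and on the plus strand chr17:34305747-34305846 for H2-Eb1, chr17:34153069-34153168 for H2-DMb1 and chr17:34145098-34145197 for H2-DMb2. Those of the modulator chains are chr17:34092275-34092374 for H2-Oa and chr17:34238787-34238886 for H2-Ob. The promoter table held 8 windows for 7 members. H2-Ab1, Cd74 and Ciita were not in it.

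Both motifs were searched on either strand within 250 bases upstream of the start. The CCAAT box, which is ATTGG on the other strand and part of GATTGG, was found for 7 of these 7 members and in 33.8% of all 32851 windows. The longer GATTGG, chosen after the windows had been read, was also found for all 7 members and in 14.6% of all windows. Counted by window, as the shares are, 7 of the 8 member windows held each. The match of H2-DMa lay far out, at bases −199 to −194. Too few bases of the window lie before it, so H2-DMa is not among the stretches shown. An X box core stood upstream of 4 members and in 8.54% of all windows. The X box core followed by ATTGG after 10 to 30 bases on the same strand was found for H2-Eb1, H2-DMb1 and H2-Ob and in 0.155% of all windows. Counted back from the start, the X box core began at base −92 and the Y box at −60 in H2-Eb1, at −95 and −62 in H2-DMb1, and at −88 and −58 in H2-Ob. The exact match of H2-Oa lay farther out, from base −141, and H2-Aa and H2-DMb2 had none in these letters. Only exact letters were counted. The printed stretches hold agcaacaaac in H2-Oa and attaaccgat in H2-DMb2, each a letter away from the core and upstream of the Y box. A missing or distant match therefore does not show that an X box is absent or displaced.

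**Figure D1:**
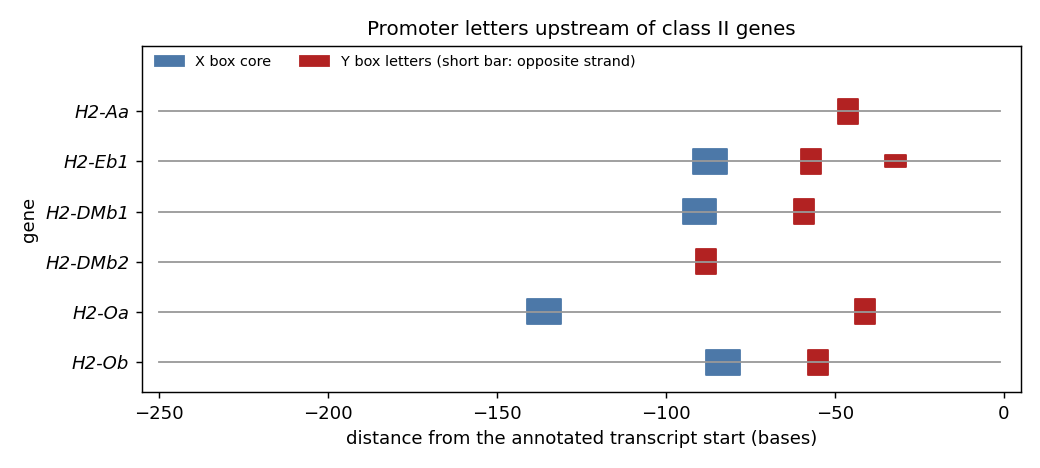
Positions of the X box core (blue) and the Y box letters GATTGG (red) in the 250 bases upstream of the annotated start of 6 class II genes; a short bar marks a match on the opposite strand, and the horizontal axis is the distance from the start in bases. The Y box nearest the aligned position begins between bases −91 and −44 in all 6, and a blue box lies close before it in H2-Eb1, H2-DMb1 and H2-Ob. H2-DMa, whose GATTGG begins at base −199, is not drawn.

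The data behind all 3 comparisons were log2 intensities, a log scale on which 1 unit is a 2-fold difference. The salivary epithelium markers, 10 of 10 measured, had a mean between 8.09 and 8.53 in every array, while the array medians lay between 3.53 and 3.69. The 4 of 5 measured markers of exocrine pancreas had means between 3.32 and 3.86. Nondiabetic 21-week array 3 correlated with each other array at 0.93 or less, the lowest such limit of the 10. Diabetic array 4 stood apart in lymphocyte markers. Its mean over the 8 measured T cell markers was 5.47, against 4.45 in each other diabetic array. Over the 10 measured B cell markers it was 5.33, against 3.83 to 4.21 in the other diabetic arrays. By Dixon's test, given below, the T cell gap was above the critical value and the B cell gap under it. Member values that turn on these arrays are also given without them.

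The I-A chain genes were the members with the clearest pattern: both were higher at 21 weeks than at 6 weeks, with or without diabetes. H2-Aa, the I-A alpha chain, read 4.16, 4.26 and 4.04 at 6 weeks, 5.44, 5.10 and 4.99 at 21 weeks without diabetes and 4.93, 5.44, 5.76 and 5.58 in diabetic mice. Every 21-week array lay above every 6-week array, and both 21-week groups overlapped with each other. H2-Ab1, the I-A beta chain, read 7.20, 6.75 and 6.84 at 6 weeks, 8.45, 8.22 and 8.06 at 21 weeks without diabetes and 7.68, 8.53, 8.58 and 8.88 with diabetes. Again the 6-week arrays were the lowest of all, and the diabetic arrays spanned the nondiabetic ones of the same age.

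H2-Eb1, the I-E beta chain, read 6.04, 6.27 and 6.45 at 6 weeks, 7.01, 6.70 and 6.62 at 21 weeks and 6.58, 7.15, 7.29 and 7.56 in diabetic mice. The 6-week arrays lay below all others, by a smaller margin than for the I-A genes. Its partner H2-Ea, which RefSeq lists as a transcribed pseudogene in the reference strain, read between 2.31 and 3.37 and was at or below the array's 25th percentile, a level close to background, in 4 of 10 arrays. H2-Eb2, a further beta chain gene of the region, ranged from 2.38 to 3.79 and was likewise that low in 4 arrays. Neither H2-Ea nor H2-Eb2 passed the test in any comparison.

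**Figure D2:**
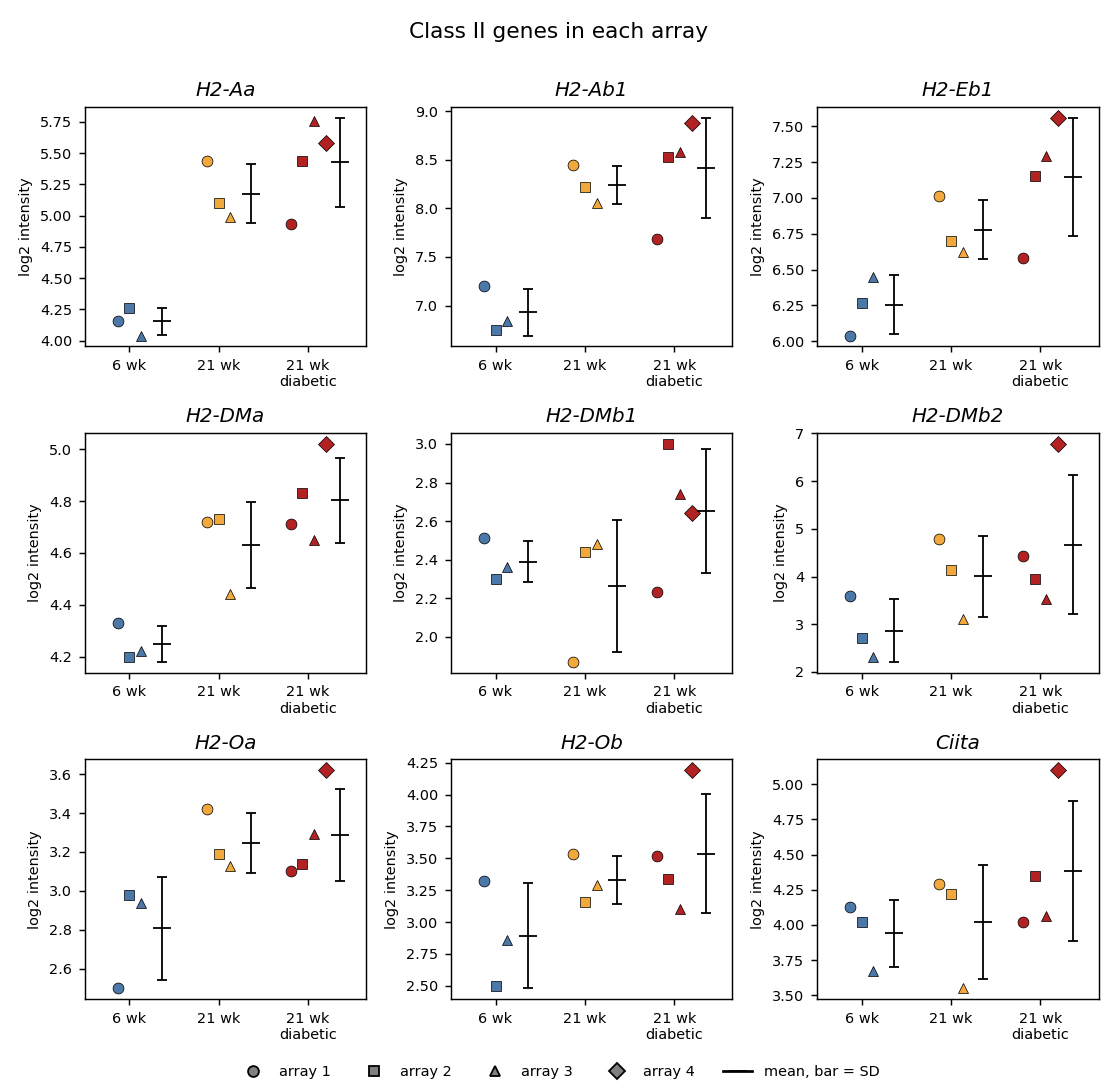
Log2 intensity of the 9 measured class II genes in each of the 10 arrays (symbols give the array number within its group), with the mean and SD of each group beside the points; panels have their own vertical scale. H2-Aa, H2-Ab1, H2-Eb1, H2-DMa and H2-Oa have no 6-week array above any 21-week array, and array 4 is the highest diabetic array in 7 of the 9 genes.

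The comparison of the nondiabetic mice at 21 and 6 weeks asks what differs with age in mice without diabetes. By limma's moderated test, 0 of the 9 members passed an adjusted p of 0.05 and 5 had an unadjusted p under 0.05, all of them higher at 21 weeks. Over all genes tested, 0.0266% passed the adjusted threshold, which is 5 genes, and 2.19% were higher at an unadjusted p under 0.05. The estimate was above 0 for 8 of 9 members and for 38.2% of all genes. H2-Ab1 stood 2.48-fold higher (log2 difference 1.31 ± 0.25 SE, 95% interval 0.76 to 1.86, limma adjusted p = 0.16) and H2-Aa 2.04-fold (1.02 ± 0.20, 0.60 to 1.45, limma adjusted p = 0.16). H2-Ab1 did pass without diabetic array 1, with the same difference and an adjusted p of 0.0231. The groups did not overlap, with the older mice higher, in H2-Aa, H2-Ab1, H2-Eb1, H2-DMa and H2-Oa. These are 5 of 9 members, where 4.11% of all genes were separate in this direction. The median difference was 0.44 over the members and −0.06 over all genes.

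The comparison of diabetic 21-week with nondiabetic 6-week mice joins age and disease, and it shares its 6-week arrays with the one before. Here H2-Aa rose 2.42-fold (1.27 ± 0.18, 95% interval 0.87 to 1.67, limma adjusted p = 0.00651) and H2-Ab1 rose 2.80-fold (1.48 ± 0.24, 0.97 to 2.00, limma adjusted p = 0.0104). They were the 2 of 9 members that passed, 0 fell and 7 did not pass, against 0.903% of all genes called higher and 1.44% in either direction. At an unadjusted p under 0.05, 7 of 9 members were higher, as were 7.7% of all genes, and the estimate was above 0 for 46% of all genes and for the 8 members other than H2-DMb1, which passed the filter through diabetic arrays alone. The H2-Ab1 call was lost without 6-week array 2 (limma adjusted p = 0.0604), and without 6-week array 3 both calls were lost (0.0506 for H2-Aa, 0.0648 for H2-Ab1). Without diabetic array 4 both were kept, at 1.22 ± 0.20 and 1.33 ± 0.23. H2-Eb1 stood at 0.89 ± 0.20 (limma adjusted p = 0.0545) and H2-DMa at 0.55 ± 0.13 (limma adjusted p = 0.0594), close to the threshold on its other side. The 5 members that did not overlap with the 6-week arrays were H2-Aa, H2-Ab1, H2-Eb1, H2-DMa and H2-Oa, and 8.2% of all genes were separate in that direction. The median was 0.64 over the members, 0.77 without H2-DMb1, and −0.02 over all genes.

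Between diabetic and nondiabetic mice of the same age, the contrast that the study's title names, no class II difference passed the test. By limma 0 of 9 members passed, with 0 at an unadjusted p under 0.05, where 1.44% of all genes passed and 15.8% had such an unadjusted p. The filter favoured a positive estimate for H2-DMb1, which passed it through diabetic arrays alone. The other 8 estimates were above 0, from 0.04 to 0.66, with a median of 0.23 (0.25 with H2-DMb1) against 0.04 over all genes, and 56% of all genes had an estimate above 0. The groups overlapped in every member, while 9.11% of all genes were separate and higher in diabetes and 4.98% separate and lower. The 95% interval of H2-Aa ran from −0.15 to 0.65 and that of H2-Ab1 from −0.34 to 0.69, so a difference of up to about 0.6 or 0.7 units in favour of the diabetic mice lies within the precision of these arrays. The median fell from 0.25 to 0.10 without diabetic array 4 and was −0.03 without that array and nondiabetic array 3.

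**Figure D3:**
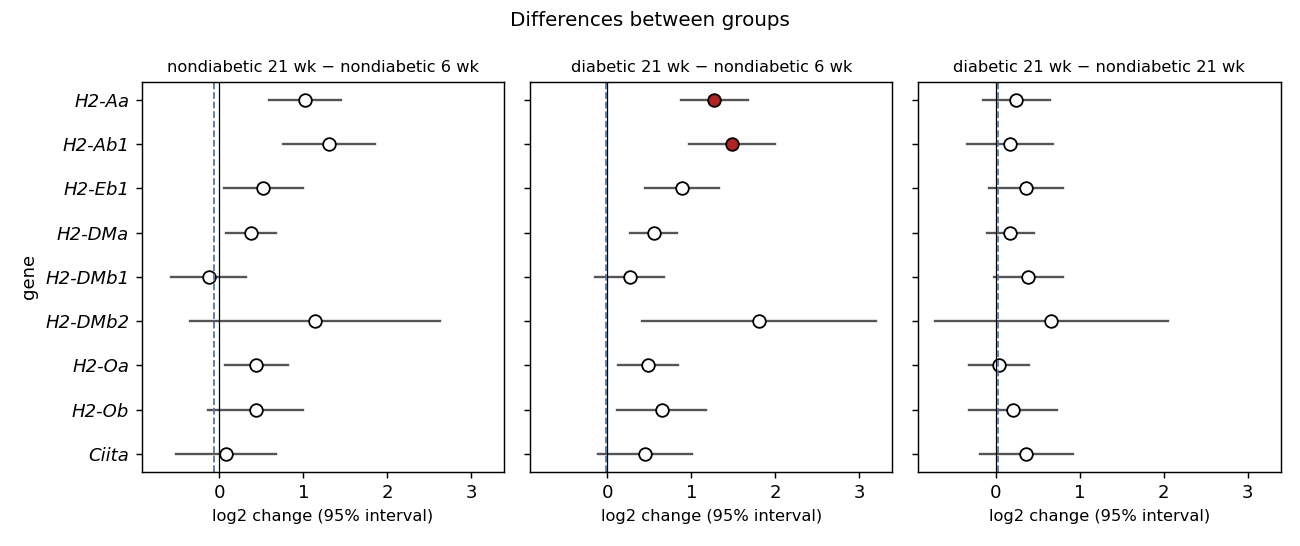
Log2 difference between groups for the 9 measured class II genes in the 3 comparisons, with 95% intervals from the limma fit; a filled red point passed an adjusted p of 0.05, and the dashed blue line is the median over all genes tested. H2-Aa (1.27) and H2-Ab1 (1.48) between diabetic 21-week and nondiabetic 6-week mice are the filled points, and the intervals between the 21-week groups all include 0.

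The peptide editor is a dimer of H2-DMa with a beta chain that mice carry in a pair of neighbouring, similar genes. H2-DMa read 4.33, 4.2 and 4.22 at 6 weeks, 4.72, 4.73 and 4.44 at 21 weeks and 4.71, 4.83, 4.65 and 5.02 in diabetic mice. It followed the I-A genes at a smaller amplitude, with a difference of 0.38 ± 0.14 between nondiabetic 21-week and 6-week mice (limma adjusted p = 0.617). H2-DMb1 read 2.51, 2.30 and 2.36 at 6 weeks, 1.87, 2.44 and 2.48 at 21 weeks and 2.23, 3.0, 2.74 and 2.64 in diabetic mice. It lay at or below the 25th percentile in 7 of 10 arrays and passed the filter through 3 diabetic arrays alone, so no level can be read from it. As H2-DMb1 and H2-DMb2 are similar in sequence, hybridisation may not separate them with certainty.

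H2-DMb2 had the largest SD of the 9 members in each of the 3 groups. It read 3.59, 2.70 and 2.31 at 6 weeks, 4.78, 4.14 and 3.10 at 21 weeks and 4.44, 3.94, 3.52 and 6.78 in diabetic mice, with an SD of 1.46 in the diabetic group. Diabetic array 4 exceeded the mean of the other diabetic arrays by 2.82, against 0.20 for H2-Aa and 0.61 for H2-Ab1. The difference between diabetic 21-week and 6-week mice was 1.81 ± 0.64 (limma adjusted p = 0.203) with that array and 1.10 ± 0.41 (adjusted p = 0.254) without it. Between the 21-week groups it was 0.66 ± 0.64 with the array and −0.04 ± 0.41 without it. Between the nondiabetic ages the difference was 1.14 ± 0.69 (limma adjusted p = 0.743).

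B cell markers are given beside H2-DMb2. The mean of the 10 of 11 listed markers that were measured was 3.47, 3.54 and 3.41 at 6 weeks, 4.28, 4.04 and 3.7 at 21 weeks and 4.21, 3.98, 3.83 and 5.33 in diabetic mice. Ordered by this mean, the 21-week arrays stood in the same order as by H2-DMb2, from nondiabetic array 3 up to diabetic array 4, while the 6-week arrays did not follow it. H2-Ab1 did not keep that order: diabetic array 1, the third highest in B cell markers, had the lowest H2-Ab1 of the 21-week arrays. The mean of the 8 measured T cell markers had the same ends over the 21-week arrays. It was lowest in nondiabetic array 3 (4.16) and highest in nondiabetic array 1 (4.87) and diabetic array 4 (5.47). The other 21-week arrays lay at 4.45 to 4.47. The order is thus not particular to B cell markers at its ends, and the part of B or T cell number in any of these values was not tested. Ms4a1, the surface protein CD20, ranged from 2.93 to 6.44, and none of the 10 markers was at or below the 25th percentile in every array.

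By limma 0 of these 10 B cell markers passed in any comparison, with 0, 2 and 7 higher at an unadjusted p under 0.05 for diabetes, age and both together. Of all genes, 15.8% had such a p for diabetes in either direction, and 2.19% and 7.7% were higher for age and both. Among the 10 of 11 measured dendritic cell markers 0 passed in any comparison, with means of 3.91 to 3.97 at 6 weeks, 3.80 to 4.10 at 21 weeks and 3.97 to 4.17 in diabetic mice. Flt3, a growth factor receptor of dendritic cells, read 3.05, 2.69 and 3.23 at 6 weeks and 3.72, 3.51 and 3.32 in the nondiabetic 21-week mice (0.53, limma adjusted p = 0.572). The 11 macrophage markers had means of 4.93 to 5.41 at 6 weeks, 4.96 to 5.18 at 21 weeks and 5.59 to 6.05 in diabetic mice. Of these, Cd68 and Mrc1 rose between the 21-week groups, 0 fell and 9 did not pass, where 1.44% of all genes passed. At an unadjusted p under 0.05, 7 of the 11 were higher, against 15.8% of all genes in either direction. Lyz2 had the largest difference but did not pass (1.76 ± 0.40, limma adjusted p = 0.0506), and Fcgr1 stood at −0.12. Cd68, a lysosomal protein, stood 2.24-fold higher (1.16 ± 0.21, limma adjusted p = 0.0205) and Mrc1, the mannose receptor, 2.88-fold (1.53 ± 0.33, limma adjusted p = 0.0397). The Mrc1 call was lost without 6-week array 3 or any 1 array of the 21-week groups other than diabetic array 2 (adjusted p up to 0.161), and the Cd68 call without nondiabetic 21-week array 1 or 3 (up to 0.0996). The part of macrophages in the class II values was not tested.

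**Figure D4:**
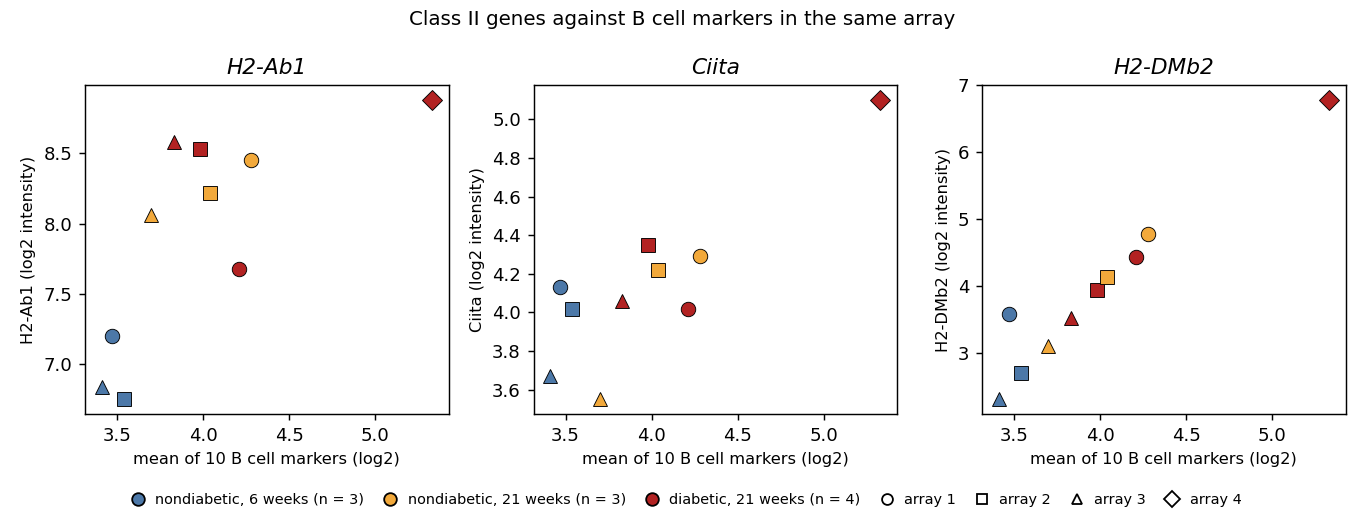
Log2 intensity of H2-Ab1, Ciita and H2-DMb2 (vertical axes) against the mean log2 intensity of 10 B cell markers in the same array (horizontal axis); colours are groups and symbols array numbers. H2-DMb2 and the marker mean are both highest in diabetic array 4, at 6.78 and 5.33, while H2-Ab1 lies at 7.68 or above in all 21-week arrays and at 7.20 or below in the 6-week arrays.

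The modulator chains were dim. H2-Oa, the alpha chain of H2-O, read 2.50, 2.98 and 2.94 at 6 weeks, 3.42, 3.19 and 3.13 at 21 weeks and 3.10, 3.14, 3.29 and 3.62 in diabetic mice, below the array median in all 10 arrays. Its groups of 21 and 6 weeks did not overlap (0.44 ± 0.17 without diabetes, limma adjusted p = 0.629). A further probe set, annotated to H2-Oa and BC051537 together, did not share this pattern. It read 3.42, 3.75 and 3.47 at 6 weeks, 3.55, 3.41 and 3.04 at 21 weeks and 3.13, 3.6, 4.0 and 3.59 in diabetic mice, so its groups overlapped. In the limma fit of all probe sets it stood at −0.21 ± 0.22 for age (adjusted p = 0.879) and 0.03 ± 0.21 for both together (0.972). H2-Ob, the beta chain, read 3.32, 2.50 and 2.86 at 6 weeks, 3.53, 3.16 and 3.29 at 21 weeks and 3.52, 3.34, 3.10 and 4.19 in diabetic mice. Its groups overlapped in every comparison, and diabetic array 4 was again the highest.

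Ciita, the regulator that class II genes need, read 4.13, 4.02 and 3.67 at 6 weeks, 4.29, 4.22 and 3.55 at 21 weeks and 4.02, 4.35, 4.06 and 5.10 in diabetic mice. Its groups overlapped in all comparisons. The difference between nondiabetic 21-week and 6-week mice was 0.08 ± 0.27 (95% interval −0.51 to 0.68, limma adjusted p = 0.965), and 0.31 ± 0.28 without nondiabetic 21-week array 3 (limma adjusted p = 0.897). Against 6-week mice the diabetic group stood at 0.45 ± 0.26 (limma adjusted p = 0.452), and at 0.21 ± 0.20 without array 4. Whether Ciita differed from H2-Ab1 in its change was not tested.

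Of the factors that bind the class II promoter, 0 of the 7 measured genes Rfx5, Rfxap, Rfxank, Nfya, Nfyb, Nfyc and Creb1 passed in any comparison. Their differences ran from −0.30 to 0.20 for age, from −0.10 to 0.49 for diabetes and from −0.32 to 0.31 for both together. At an unadjusted p under 0.05, 0 differed for age, 1 was higher for diabetes and 1 for both. Over all genes, 15.8% had such a p for diabetes in either direction, and 7.7% were higher for both.

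Among the endosomal enzymes that prepare class II for peptide, Ctsl and Lgmn rose between the 21-week groups, 0 of 7 fell and 5 did not pass. In that comparison 1.44% of all genes passed in either direction. Lgmn, an asparaginyl endopeptidase, read 5.68, 5.65 and 5.22 without diabetes and 6.29, 6.09, 6.46 and 6.18 with it, a 1.67-fold rise (0.74 ± 0.17, limma adjusted p = 0.0476). Ctsl, cathepsin L, read 6.71, 6.57 and 6.76 without and 7.20, 7.29, 7.21 and 7.20 with diabetes, a 1.46-fold rise (0.55 ± 0.12, limma adjusted p = 0.0479). Both sat near the threshold. The Ctsl call was kept without 1 of the 10 arrays left out in turn (adjusted p from 0.0472 to 0.13) and the Lgmn call without 2 of them (0.0424 to 0.179), so each array of either 21-week group decides them. The macrophage means given above were highest in the same diabetic arrays, and their part in these differences was not tested.

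Ifi30, a thiol reductase of antigen-presenting cells that opens disulfide bonds of antigens, went the other way. It read 7.96, 7.88 and 7.97 at 6 weeks, 7.16, 7.43 and 7.28 at 21 weeks and 7.08, 6.59, 7.16 and 7.20 in diabetic mice, so every 21-week array was below every 6-week array. It fell 1.90-fold from 6-week to diabetic 21-week mice (−0.93 ± 0.15, limma adjusted p = 0.0119) and stood at −0.65 ± 0.16 between the nondiabetic ages (limma adjusted p = 0.473). The call was lost without any 1 of the 6-week arrays, with adjusted p up to 0.072. In that comparison Ctsl rose 1.5-fold (limma adjusted p = 0.0369), a call kept without 2 of the 10 arrays (up to 0.175), 5 of 7 enzymes did not pass, and for age alone 0 of 7 passed. The shares of all genes that passed in either direction were 1.44% there and 0.0266% for age.

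Ctss, cathepsin S, the main protease of the invariant chain in B cells and dendritic cells, had the pattern of the I-A genes. It read 6.07, 5.66 and 6.17 at 6 weeks, 6.55, 6.59 and 6.47 at 21 weeks and 6.29, 6.52, 6.81 and 6.73 in diabetic mice, without overlap between the ages. Its differences from the 6-week group were 0.57 ± 0.17 (limma adjusted p = 0.52) and 0.62 ± 0.16 (0.0783), neither of which passed. Ctsb, Ctsd and Ctsh did not pass in any comparison, with differences between −0.19 and 0.46.

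**Figure D5:**
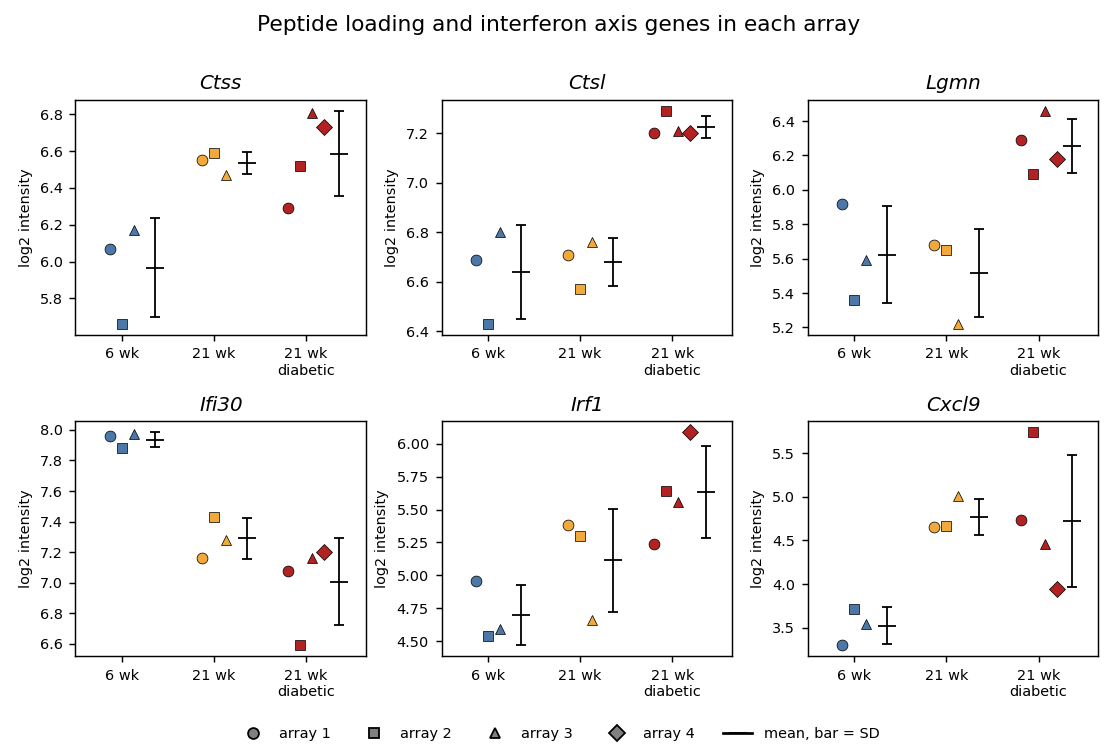
Log2 intensity of 4 genes of peptide loading (Ctss, Ctsl, Lgmn, Ifi30) and 2 genes of the interferon gamma axis (Irf1, Cxcl9) in each of the 10 arrays, with the mean and SD of each group; symbols give array numbers and panels have their own vertical scale. Ifi30 lies at 7.88 or above in the 6-week arrays and at 7.43 or below in all others, and Ctsl at 7.20 or above in the diabetic arrays alone.

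Interferon gamma is the best known inducer of Ciita. Of its axis, 10 listed genes had a probe set of their own, of which Ifng, the cytokine itself, was at or below the 25th percentile in 8 of 10 arrays and did not pass the filter. By limma 0 of the other 9 passed in any comparison, with 4, 1 and 5 higher at an unadjusted p under 0.05 for diabetes, age and both. Among all genes, 15.8% had such a p for diabetes in either direction, and 2.19% and 7.7% were higher for age and both. Cxcl9, a chemokine induced by interferon gamma, read 3.30, 3.72 and 3.55 at 6 weeks, 4.65, 4.66 and 5.01 at 21 weeks and 4.73, 5.74, 4.46 and 3.95 in diabetic mice. The older mice were higher in every array, with a difference of 1.26 ± 0.33 for age (limma adjusted p = 0.481). Irf1, an interferon-induced transcription factor, stood 0.94 ± 0.22 higher in diabetic 21-week than in 6-week mice (limma adjusted p = 0.0554). The receptor gene Ifngr1 (0.75 ± 0.18) and the kinase gene Jak2 (0.64 ± 0.16) were the nearest to the threshold between the 21-week groups (limma adjusted p = 0.065 and 0.0749).

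Of the 8 genes of class II turnover and costimulation, 0 passed in any comparison. At an unadjusted p under 0.05, 3, 1 and 2 were higher for diabetes, age and both. Among the receptor-side genes Cd4, Lag3, Cd3e, Cd28 and Ctla4, 0 of 5 passed in any comparison, with 1, 1 and 3 higher at such a p. The shares of all genes that passed were 1.44%, 0.0266% and 1.44%. An unadjusted p under 0.05 was found for 15.8% in either direction for diabetes, and for 2.19% and 7.7% with higher values for age and both. Cd4, the coreceptor for class II, read 4.28, 4.46 and 3.63 at 6 weeks, 5.05, 4.71 and 5.08 at 21 weeks and 4.88, 4.53, 4.88 and 5.74 in diabetic mice. T cell markers were higher on average at 21 weeks, though flat over diabetic arrays 1 to 3: the mean of the 8 of 9 measured markers was 3.73 to 3.93 at 6 weeks, 4.16 to 4.87 at 21 weeks and 4.45 to 5.47 in diabetic mice. Cd3g rose 3.93-fold between 6-week and diabetic 21-week mice (limma adjusted p = 0.0122). It was the 1 of 8 markers that passed there, against 0.903% of all genes called higher. The call was lost without any 1 of the 6-week arrays (limma adjusted p up to 0.0628). The part of T cells in the class II values was not tested.

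The genes most like the class II chains over the 10 arrays were named by Pearson's r among 16725 genes, as a description without a test over points that share the 3 groups. With the mean of H2-Aa, H2-Ab1 and H2-Eb1 they were Snrnp40 (0.956), Ptcd3 (0.952), Shisa5 (0.945), Mir23b (0.927), Snord17 (0.925), Cyth4 (0.918), Dusp2 (0.918) and Zmat2 (0.915). H2-DMa was most like Cyth4 (0.957), Irf1 (0.943) and Casp1 (0.941). H2-DMb2 was most like Eif4a1 (0.964), Cd37 (0.963) and Sash3 (0.962), H2-Ob like Ptma and Themis2 (both 0.966) and Rn7sk (0.951). Ciita was most like Prkcq (0.96), Snord35b (0.956) and Blm (0.955). H2-Oa was most like Sp110 (0.954), Snord8 (0.943) and Snora74a (0.94), and H2-DMb1, near background, like Cry1 (0.907), Mrap (0.9) and Bmp4 (0.875). Among the members themselves r was 0.96 between H2-Aa and H2-Ab1 and 0.91 between H2-DMb2 and H2-Ob, against 0.52 between H2-Aa and Ciita and 0.03 between H2-DMb1 and H2-DMb2.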

How the data were processed

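RNA from gland cells was measured on 10 Affymetrix arrays, each array taken as 1 mouse. The authors deposited normalized log2 values for each probe set. Per the submitters' processing notes, RMA and Affymetrix Power Tools made them, and their versions were not given in the sources used here. Of 41345 probe sets, 23521 had 1 gene symbol, 1814 several and 16010 none, and 23328 matched a RefSeq gene identifier (0 symbols changed).

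Probe sets above the 25th percentile of their array in at least 3 arrays were kept. For each gene the brightest remained. Group means were fitted to all 10 arrays with limma 3.58.1 in R 4.3.3 (lmFit, eBayes), two-sided, with Benjamini-Hochberg adjustment over 18826 genes and a threshold of 0.05. This was checked on simulated data. Where arrays are not from separate animals, the p-values measure technical spread, and the number of arrays limits precision.

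The members, gene lists and alternatives were chosen with earlier results of these data known. All members were to be named, and from the other lists the genes past the threshold, up to 4 with the smallest p for each comparison, all proteases and promoter factors, and the genes of highest correlation. Ifng, which did not pass the filter, was named outside this rule. Alternatives covered the filter, the variance model, array weights, centring, the groups fitted, a replicate block and arrays left out.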

Additional observations from a re-analysis of the deposited data

Results flagged for a closer look

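Among the diabetic arrays, 1 array lay far from the other 3 in 5 of 23 values tested, with a gap to the next array above the 95% critical value of Dixon's test. The gap divided by the range was 0.994 for the mean of the T cell markers, 0.9 for the receptor-side genes, 0.88 for the dendritic cell markers and 0.832 for class II turnover and costimulation, each with array 4 as the highest. It was 0.916 for the macrophage markers, with array 3 as the highest. Chance flags about 1 in 20 such groups. The T cell markers and the receptor-side genes share Cd3e and Cd4, so their flags are not independent. For the 9 members the same measure lay between 0.526 (H2-DMa) and 0.717 (H2-DMb2), under that critical value. The mean of the B cell markers, at 0.743, was also under it.

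The probe set annotated to both Cd74 and Mir5107 was outside the comparisons, since it cannot be given to 1 gene. It read 7.24, 7.07 and 7.14 at 6 weeks, 8.44, 8.25 and 8.0 at 21 weeks without diabetes and 7.86, 8.50, 8.62 and 9.10 with diabetes. In a limma fit of all 33001 probe sets past the filter, its log2 difference was 1.08 ± 0.26 between the nondiabetic ages (adjusted p = 0.529), 1.37 ± 0.24 between diabetic 21-week and 6-week mice (adjusted p = 0.0531) and 0.29 ± 0.24 between the 21-week groups (adjusted p = 0.636).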

How the results depend on the processing

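Of 585 values of single members under the alternatives, 550 kept their direction and their side of the threshold. H2-Aa, H2-Ab1, H2-Eb1, H2-DMa, H2-DMb2, H2-Oa and H2-Ob kept their direction against the 6-week group in both comparisons, under every alternative that measured them. Ciita reversed under 3 alternatives and H2-DMb1 under 1, each for age alone. With the filter at each array's median, which leaves 6 members, and also with array weights and with median centring, 4 members passed between diabetic 21-week and 6-week mice. The first of these moved the member median to 1.08 there and to 0.78 for age, because the dim members leave it, and array weights gave 1 member for age (H2-Ab1, adjusted p = 0.0483). Leaving out each array in turn gave 0 to 4 members called for both together, 0 to 1 for age and 0 for diabetes, with member medians of 0.48 to 0.79, 0.36 to 0.53 and 0.10 to 0.42.

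Without diabetic array 4 and nondiabetic 21-week array 3, the member median for diabetes turned to −0.025, with H2-Ab1 at −0.072, H2-DMb2 at −0.49, H2-Oa at −0.13, H2-Ob at −0.025 and Ciita at −0.11, none of which passed. Leaving out single arrays moved the diabetes difference of H2-DMb2 from −0.04 to 1.05, of H2-Oa from −0.07 to 0.126 and of H2-Ob from −0.009 to 0.354, each lowest without diabetic array 4, and H2-Oa was −0.017 without nondiabetic 21-week array 3 and −0.035 with array weights. For age, H2-DMb1 ranged from −0.236 to 0.072 and Ciita from −0.055 to 0.314 (the latter without nondiabetic 21-week array 3), with Ciita at −0.053 without nondiabetic 21-week array 1 and −0.018 without array 2 of that group.

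Same-numbered arrays of different groups did not deviate together (correlations of −0.118 to 0.066 over genes), so the numbers were not taken as pairs. The replicate block, which drops diabetic array 4 because number 4 occurs in 1 group, gave −0.04 for H2-DMb2, −0.07 for H2-Oa and −0.009 for H2-Ob in diabetes, and 204, 4 and 206 genes called for diabetes, age and both. With it 0, 0 and 3 members passed; H2-DMb2 was added (1.10, adjusted p = 0.0199) and no other member's call changed.

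Over all genes, the 271 calls for diabetes were 161 when the 2 groups were fitted alone, 175 without both arrays that stand apart and 126 over every probe set, an alternative added after seeing the data. The 5 calls for age were 0 in a fit of the 2 groups alone (1406 genes had an unadjusted p under 0.05 in the fit of all groups), 9 with trended variance, 18 with array weights, 39 without both arrays and 2 over every probe set. The 272 for both together were 672 with array weights, 505 without both arrays and 105 over every probe set. Single arrays left out gave 84 to 268, 1 to 10 and 48 to 393 calls. The cause of these shifts was not tested.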

Other observations

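The largest called difference among the marker lists between the 21-week groups was that of Cxcl13, which guides B cells into follicles. It read 5.25, 4.60 and 4.04 without diabetes and 7.10, 7.03, 8.58 and 9.19 with diabetes, a 10.2-fold rise (3.35 ± 0.48, limma adjusted p = 0.00482, up to 0.032 with single arrays left out), while 0 of 10 B cell markers passed. It was the 1 called gene of the 4 measured markers of lymph node stroma and high endothelial venules. Of the 10 salivary epithelium markers, Bpifa2, a secreted salivary protein, rose (2.72 ± 0.54, limma adjusted p = 0.0306, up to 0.0895 without single 21-week arrays) and Ascl3, a duct cell transcription factor, fell (−1.24 ± 0.20, limma adjusted p = 0.0104). Of the 4 adipocyte markers Fabp4 rose (1.37 ± 0.24, limma adjusted p = 0.015), a call lost without diabetic array 3 or nondiabetic 21-week array 3 (up to 0.076). The part of these cell types in the class II values was not tested.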
